A study of Arabidopsis thaliana with 4 samples.

Results

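PORB (AT4G27440) and LHCB4.1 (AT5G01530) are nuclear genes of Arabidopsis thaliana for chlorophyll synthesis and chlorophyll binding. They were chosen by name, with earlier results of these arrays known, because both had much lower signals in chilled seeds, so their values at the 2 temperatures are given as a description with no test. Each has 1 probe set that the platform annotation pairs with that gene alone, so they are 2 of 13286 genes measured in this way and 2 of 22746 probe sets other than controls. All seeds were of the Ler-0 (Landsberg erecta) background and spent 96 h in darkness, at 22 °C in one group and at 4 °C in the other, and the 2 groups differ in temperature alone as far as the labels say. Biotin-labelled total RNA was measured on 2 arrays at each temperature, called replicates A and B. The labelled stage is dry seeds, which stands beside the 96 h treatment in the same labels. Whether A and B were separate batches of seeds is not stated, so p-values here reflect no more than the scatter of these 4 arrays, which may be technical.

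PORB encodes a protochlorophyllide oxidoreductase, which reduces protochlorophyllide to chlorophyllide, a step that in flowering plants needs light. The enzyme is known to gather with its substrate in the etioplasts of seedlings grown in darkness, ready for the first illumination. LHCB4.1 encodes CP29, an antenna protein that binds chlorophyll and sits between the core of photosystem II and its main light-harvesting complexes. Genes of this antenna family are best known for rising with light, and neither protein can act in photosynthesis in the dark.

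The arrays were brought to a trimmed mean signal of 500, and all signals are on that scale. Arrays at 22 °C are called warm and those at 4 °C cold, and a pair of values is that of replicate A and then of replicate B. The warm signals of PORB were 1826 in replicate A and 12778 in replicate B. In the cold, replicate A had 80.3 and replicate B 15.4. PORB was thus high on both warm arrays and low on both cold ones, with no overlap, and the lower warm array stood 22.7 times above the higher cold one. The replicates also lay far apart, with B at 7.0 times A in the warm and A at 5.22 times B in the cold. The means were 7302 ± 7745 at 22 °C and 47.9 ± 45.9 at 4 °C (SD, n = 2), so that each SD was about as large as its mean.

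LHCB4.1 had 3717 and 3835 in the warm, and 289.8 and 214.9 in the cold. Its groups did not overlap either, and the lower warm array stood 12.8 times above the higher cold one. The means were 3776 ± 83.5 at 22 °C and 252.3 ± 53.0 at 4 °C (SD, n = 2). The warm replicates differed by a factor of 1.03 and the cold ones by 1.35. Over all 15847 probe sets with a mean signal of at least 64, both cold arrays lay below both warm ones at 31.4%. This share is given for scale only, since the temperature difference was used to choose both genes. Signals of different probe sets cannot be set against each other, so the higher warm mean of PORB does not rank its transcript above that of LHCB4.1.

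**Figure D1:**
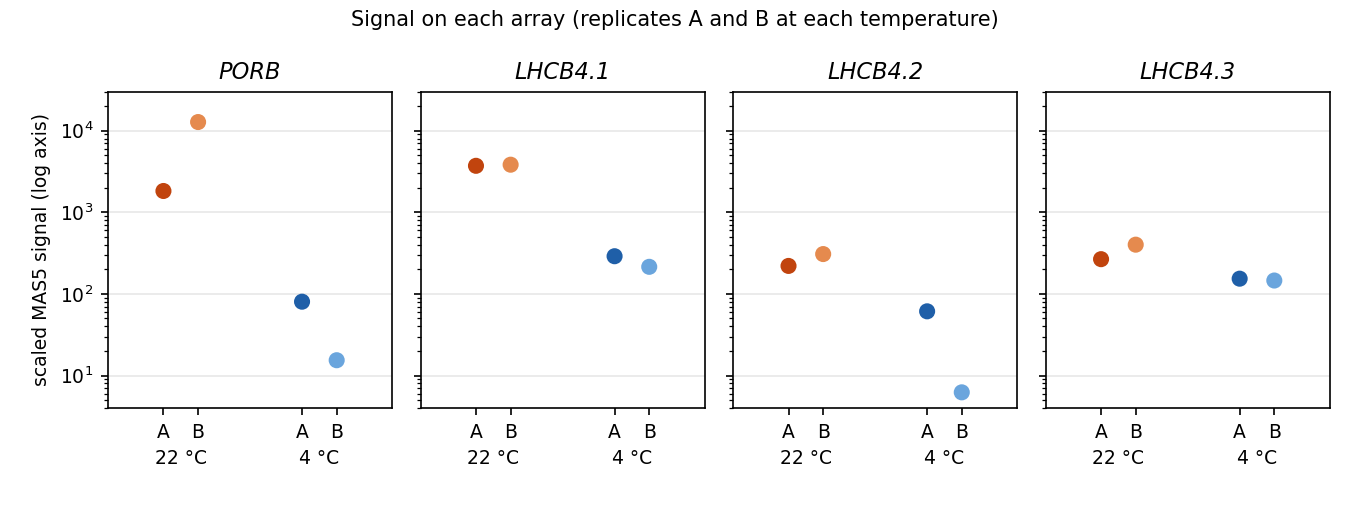
Scaled MAS5 signal (log axis) on each of the 4 arrays for PORB, LHCB4.1 and the 2 other LHCB4 genes; each point is 1 array, and levels are to be compared within a panel only. PORB ran from 1826 to 12778 at 22 °C and from 15.4 to 80.3 at 4 °C, while the warm points of LHCB4.1, 3717 and 3835, nearly coincide.

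The size of the PORB difference depended on which warm array it was taken against. On the scale of log2(signal + 32), the difference of 4 °C minus 22 °C was -6.06 with both warm arrays, -4.67 against 22 °C A alone and -7.46 against 22 °C B alone. For LHCB4.1 it was -3.76 with both, -3.73 against 22 °C A and -3.78 against 22 °C B. LHCB4.1 therefore gave nearly the same value against either warm array, whereas the values for PORB were 2.79 apart. The cold signals of PORB were low enough for the added constant to matter. With no constant its difference was -7.10, and with a constant of 100 it was -5.11. No detection call was used, so whether PORB was detected in the cold cannot be said. In bulk RNA, fewer cells with a transcript and less of it per cell cannot be told apart.

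A rank within an array does not depend on how the arrays are scaled. The PORB probe set stood at rank 49 of 22746 by signal on 22 °C B and at rank 1937 on 22 °C A. At 4 °C it stood at rank 13574 on A and 19338 on B. By this measure it went from among the brightest probe sets of one warm array to the dimmer part of both cold ones. LHCB4.1 stood at ranks 831 and 650 on 22 °C A and B and at 8522 and 9805 on 4 °C A and B, in the middle of the range in the cold.

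The 22 °C arrays differed from each other at many genes, and the 2 members took opposite places in that difference. Over all probe sets kept, the log2 signals of the warm arrays correlated with r = 0.778 and those of the cold arrays with r = 0.937, a description across probe sets, which are not independent. PORB had a log2 difference of 22 °C B minus 22 °C A of 2.79, and 2.40% of the probe sets kept had a larger absolute difference. LHCB4.1 had 0.04, with 96.4% larger. Both genes were chosen with earlier results of these arrays known, so these places are a description with no test. The next value is again that of LHCB4.1. Median centring turned this small value to -0.11. At 4 °C the difference of B minus A was -1.24 for PORB, the other direction from that in the warm, and -0.38 for LHCB4.1. Of the 371 probe sets that the limma test called lower at 4 °C, 107 (28.8%) were over 2-fold higher on 22 °C B. A further 87 (23.5%) were over 2-fold higher on 22 °C A and 177 lay within 2-fold. Over all probe sets kept, 19.5% were over 2-fold higher on B and 12.5% on A. The limma call itself depends on the scatter of the replicates. Of the 371, 35 (9.43%) had a warm replicate difference at least as high as that of PORB, against 2.28% higher over all probe sets kept. A difference at least as close to 0 as that of LHCB4.1 was found at 17 (4.58%), against 3.64% closer over all kept.

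**Figure D2:**
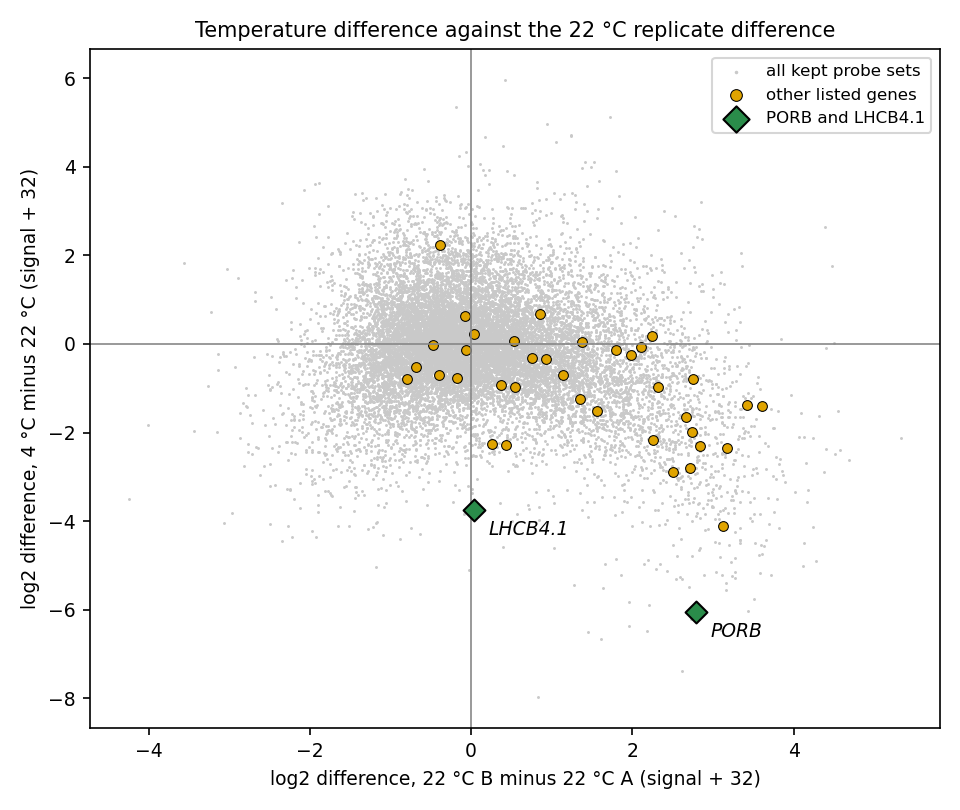
Each point is a probe set, with the log2 difference between the 22 °C replicates (B minus A) on the horizontal axis and that of 4 °C minus 22 °C on the vertical axis, both on signal + 32. PORB lies at 2.79 and -6.06 and LHCB4.1 at 0.04 and -3.76, and the other listed genes of chlorophyll and photosynthesis lie mostly to the right of 0.

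Other measures moved between the warm arrays together with PORB. The 7 tubulin genes measured, which encode the subunits of microtubules, all exceeded A on warm B, by a median of 2.63, and their summed signal was 4786 and 28493 in the warm against 6081 and 10964 in the cold. Of 30 late embryogenesis abundant (LEA) genes kept, whose products accumulate in maturing seeds, 23 were lower on B, with a median of -1.01; over all probe sets 48.0% were higher on B. Between the temperatures, limma called 1 of 7 tubulin genes lower (TUB1), and of 30 LEA genes 3 lower (AT2G42560, AT2G44060 and AT3G22490) and 1 higher (the dehydrin gene LTI30), against 5.05% of all probe sets called in either direction. These 5 were named after their values were seen. The ratio of the 3-prime to the 5-prime GAPDH control, a sign of RNA integrity, was 1.46 on 22 °C A, 0.680 on 22 °C B, 1.01 on 4 °C A and 0.639 on 4 °C B. Replicate A thus had the higher ratio in the warm and in the cold. The part of any of these in the PORB values was not tested. Of 20 seed storage and oil body genes listed, 4 had a single-gene probe set and all 4 were kept. Of these genes 0 passed limma between the temperatures, with 1 at an unadjusted p under 0.05. The vicilin-like gene PAP85 had 12306 and 18426 in the warm and 16296 and 16401 in the cold, a log2 difference of 0.12. The other 3 had negative differences, of -0.22 for AT3G01570, -0.77 for AT1G03890 and -1.63 for the oleosin gene OLEO3, which had 1305 and 1838 in the warm and 348.2 and 658.2 in the cold (limma adjusted p = 0.103). AT1G03890 and OLEO3 were named after their values were seen, and the 3 endosperm markers listed were not analysed here.

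The other genes of these pathways were compared from lists drawn up by function. Besides the 2 members, 244 genes of chlorophyll synthesis and breakdown, heme and bilins, light harvesting, photosystems, electron transport, carbon fixation, carotenoids, protein import and light signalling were listed. Of these 39 had a single-gene probe set, and 37 passed the filter on low signal. In the limma test, with p adjusted over all 15847 probe sets, 2 of the 37 fell at 4 °C, 1 rose and 34 did not pass. Over all probe sets 5.05% were called, 2.34% lower and 2.71% higher, so 2 lower and 1 higher of 37 is close to what the whole array gave. The median log2 difference was -0.78 over the 37 genes and -0.13 over all probe sets. Both cold arrays lay below both warm ones at 19 of 37 genes, against 31.4% of all probe sets, and above them at 3, against 25.7%. At an unadjusted p under 0.05 were 11 of the 37 and 25.6% of all probe sets. In the counts that follow, with an array left out, the lone array is assumed to vary like the other pair. They thus ignore the scatter between the replicates of that group. Without 22 °C A 18 of 37 passed, against 27.0% of all probe sets, and without 22 °C B 6 of 35, against 23.9%. Without 4 °C A or B none passed by limma, with 7 and 6 of 37 at an unadjusted p under 0.05, against 12.2% and 12.3%.

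Most of these genes were higher on the warm array on which PORB was higher. On 22 °C B 29 of 37 exceeded 22 °C A, against 48.0% of all probe sets. The excess was over 2-fold at 20 genes, against 19.5% of all probe sets, and 0 genes were over 2-fold lower on B, against 12.5%. The median of B minus A was 1.35 over the 37 genes and -0.05 over all probe sets. Both cold arrays lay below 22 °C B at 31 of 37 genes (45.8% of all probe sets) and below 22 °C A at 21 (44.3%). These counts set 1 array against 1 and carry no test.

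**Figure D3:**
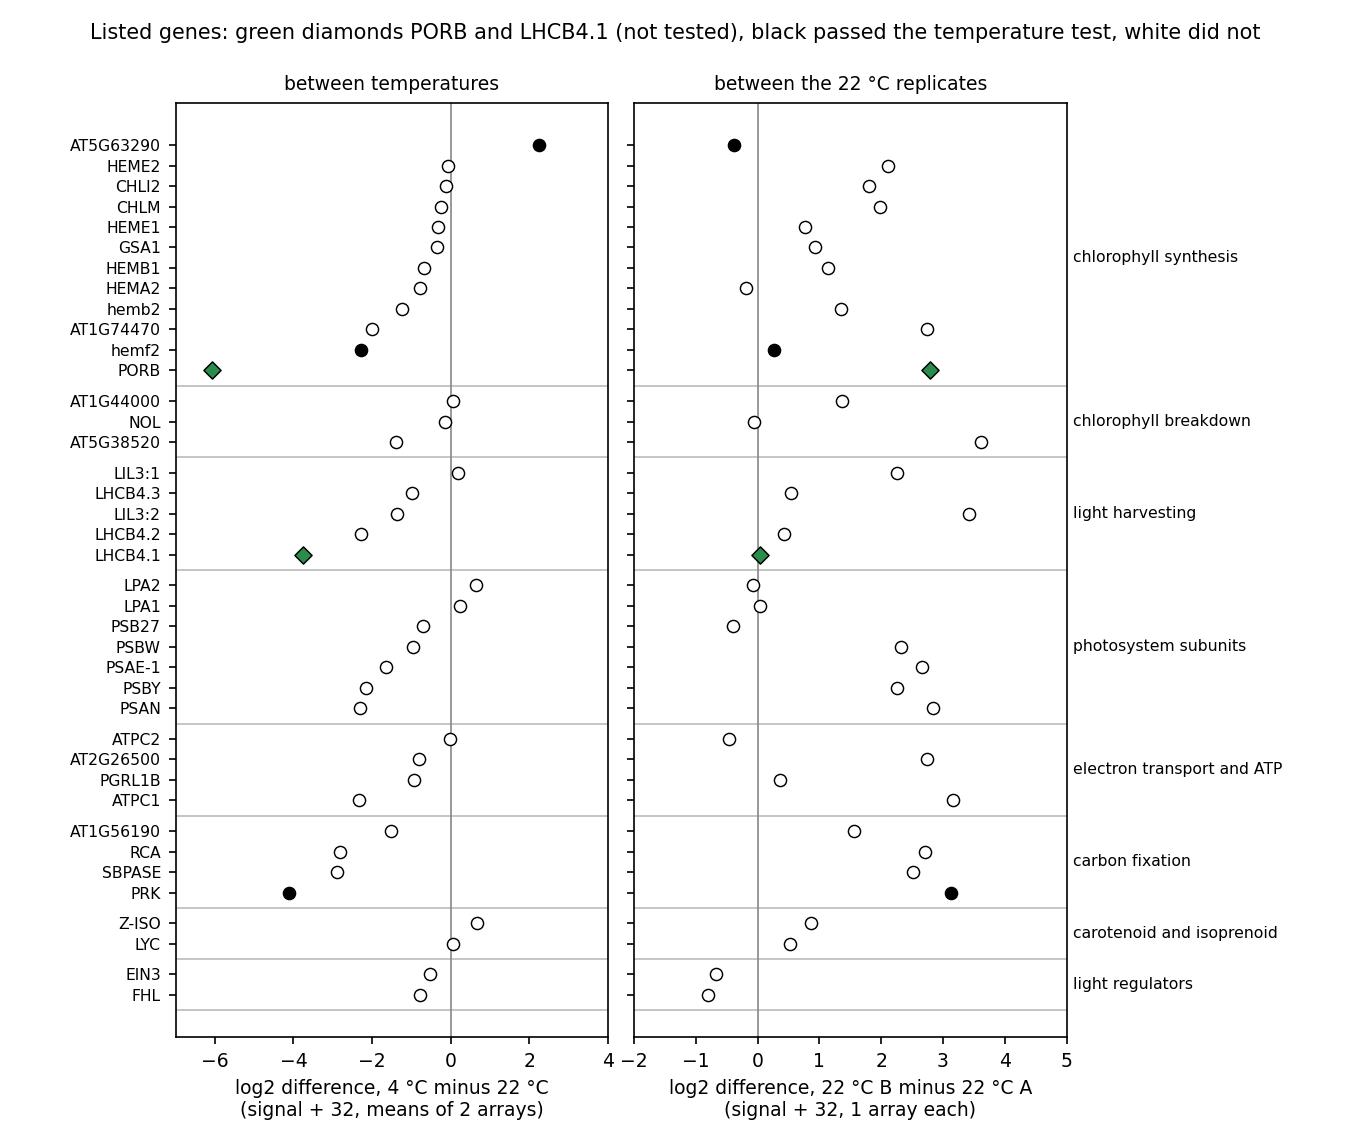
Log2 differences (signal + 32) of 4 °C minus 22 °C on the left and of 22 °C B minus 22 °C A on the right, for PORB and LHCB4.1 (green diamonds) and the 37 other listed genes; black points passed the limma temperature test and white ones did not. PORB, at -6.06, and LHCB4.1, at -3.76, lie left of most others, and on the right 20 genes exceed 1.

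In chlorophyll synthesis, 1 of 11 genes kept fell, 1 rose and 9 did not pass, with a median log2 difference of -0.35. Over all probe sets 2.34% were called lower and 2.71% higher. The gene hemf2, a coproporphyrinogen oxidase gene of the common tetrapyrrole path, had 261.7 and 318.6 in the warm and 54.2 and 19.4 in the cold. At 4 °C it fell by 2.27 in log2 units (SE 0.50; adjusted p = 0.0474 by limma), with no overlap and a small warm replicate difference. AT5G63290, for which the RefSeq table gives no symbol, had 112.5 and 78.9 in the warm and 578.5 and 553.6 in the cold. It rose by 2.24 in log2 units (SE 0.43; adjusted p = 0.0383 by limma). The call of hemf2 was lost with quantile normalization (adjusted p = 0.0572), and both were lost with a pseudocount of 100 (0.0589 and 0.0554), without the filter on low signal (0.0917 and 0.0788) and without either 4 °C array. AT5G63290 also missed the threshold on the deposited scale (adjusted p = 0.0909).

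The measured genes of the chlorophyll branch itself did not pass the test. CHLI2, a subunit of the magnesium chelatase that opens the chlorophyll branch, had 85.8 and 378.3 in the warm and 120.5 and 233.1 in the cold. CHLM, the methyltransferase that acts on magnesium protoporphyrin, had 484.9 and 2009 in the warm and 747.0 and 944.4 in the cold. Both cold values of each lay between the 2 warm ones, so the groups overlapped. AT1G74470, the geranylgeranyl reductase that supplies the phytol tail of chlorophyll, had 708.8 and 4909.5 in the warm and 463.0 and 438.3 in the cold. Both cold arrays lay below both warm ones, as at 31.4% of all probe sets. Its log2 difference of -1.99 missed the threshold (SE 0.83, limma adjusted p = 0.187). AT1G74470 had a difference of -3.36 without 22 °C A and of -0.62 without 22 °C B. Its warm replicate difference, 2.74, was close to the 2.79 of PORB.

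Other genes of the earlier steps, which also serve heme, had log2 differences from -1.25 to -0.06. The glutamyl-tRNA reductase gene HEMA2 had a log2 difference of -0.77, GSA1, the aminotransferase that makes aminolevulinic acid, had -0.35, and HEMB1 and hemb2, which encode its dehydratase, had -0.69 and -1.25. The uroporphyrinogen decarboxylase genes HEME1 and HEME2 had -0.32 and -0.06. None of these 6 passed, and without 22 °C A hemb2 did (limma adjusted p = 0.00476). The warm signals of HEME2 were 239.7 and 1139.5, with the cold ones, 448.8 and 578.5, between them. HEMA3 was left out by the filter on low signal, with 6.14 to 43.8 on the 4 arrays. The other protochlorophyllide oxidoreductase genes, PORA and PORC, and the heme and bilin list had no single-gene probe set and are not analysed here.

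The other LHCB4 genes are the nearest relatives of LHCB4.1 on the array. LHCB4.2 had 220.4 and 308.0 in the warm and 61.2 and 6.22 in the cold, a log2 difference of -2.29 (SE 0.59; limma adjusted p = 0.0638). LHCB4.3 had 266.7 and 401.5 in the warm and 153.8 and 146.0 in the cold, a difference of -0.98 (SE 0.44; adjusted p = 0.216). Neither passed. Both cold arrays lay below both warm ones for each, as at 31.4% of all probe sets. Without 22 °C A the differences of LHCB4.2 and LHCB4.3 were -2.51 and -1.25, and without 22 °C B they were -2.08 and -0.72. Like LHCB4.1, both had warm replicates within 2-fold, with B minus A of 0.43 and 0.54. So did most probe sets kept, of which 19.5% were over 2-fold higher on B and 12.5% on A. Probe sets of such close relatives may detect each other's transcripts, although the annotation pairs each with 1 gene.

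The light-harvesting-like genes LIL3:1 and LIL3:2, whose products bind chlorophyll and are known to act with the geranylgeranyl reductase, had their warm replicates far apart. LIL3:1 had 294.6 and 1523 in the warm and 782.3 and 769.3 in the cold. LIL3:2 had 575.0 and 6453 in the warm and 740.0 and 732.0 in the cold. For both, the cold arrays were close to each other and lay between the warm ones, and neither passed (limma adjusted p = 0.908 and 0.432). Without 22 °C A the differences of LIL3:1 and LIL3:2 were -0.95 and -3.08, and without 22 °C B they were 1.31 and 0.34. Of the 4 light harvesting genes kept besides LHCB4.1, 0 passed limma, with 1 at an unadjusted p under 0.05. These shares were 5.05% and 25.6% over all probe sets. The median log2 difference of the 4 was -1.18.

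Of 7 genes for photosystem subunits and assembly factors, 0 passed limma and 2 had an unadjusted p under 0.05, close to the 25.6% of all probe sets. PSAN and PSAE-1 of photosystem I had log2 differences of -2.30 and -1.64, and PSBY and PSBW of photosystem II had -2.16 and -0.97. All 4 were over 2-fold higher on 22 °C B than on A, as in PSAN with 74.9 and 732.7 in the warm against 27.1 and 25.02 in the cold. The repair factor gene PSB27 had -0.70 and the assembly factor genes LPA1 and LPA2 had 0.23 and 0.64. Their warm replicates lay within 2-fold, with B minus A of -0.40, 0.04 and -0.08. Without 22 °C A the differences of PSAN, PSAE-1, PSBY and PSBW were -3.72, -2.97, -3.29 and -2.13. Without 22 °C B those of PSAE-1, PSBY and PSBW were -0.31, -1.03 and 0.18, and PSAN fell below the filter on low signal. The 4 subunits with a large warm replicate difference were thus all on the PORB side of that contrast.

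Of the 37 pathway genes, the one with the lowest temperature difference belonged to carbon fixation. PRK, the phosphoribulokinase of the Calvin cycle, had 571.3 and 5265 in the warm and 69.6 and 72.7 in the cold. It fell by 4.12 in log2 units (SE 0.91; adjusted p = 0.0476 by limma), with -5.68 without 22 °C A and -2.55 without 22 °C B. PRK no longer passed with a pseudocount of 100 (adjusted p = 0.0784), without the filter (0.0916), with robust estimation (0.0524), with no variance trend (0.0537) or without either cold array. The other 3 genes of the list did not pass. SBPASE and RCA, the sedoheptulose bisphosphatase and the Rubisco activase, named after their values were seen, had log2 differences of -2.89 and -2.81 (adjusted p = 0.0718 and 0.0887). Both passed limma with the filter at 200 (adjusted p = 0.0360 and 0.0498). Their differences were -4.14 and -4.17 without 22 °C A, and -1.63 and -1.46 without 22 °C B. Over the 4 genes the summed signal was 2265 and 14774 in the warm and 699.2 and 736.9 in the cold, and all 4 exceeded A by over 2-fold on warm B.

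The remaining lists held few measured genes. Against 5.05% and 25.6% of all probe sets, 0 of 4 genes of electron transport and ATP synthesis passed limma and 1 had an unadjusted p under 0.05. This was ATPC1, the gamma subunit of the chloroplast ATP synthase, with 277.7 and 2765 in the warm and 127.7 and 180.9 in the cold. Its log2 difference was -2.34 (limma adjusted p = 0.166), with -3.92 without 22 °C A and -0.75 without 22 °C B. In chlorophyll breakdown 0 of 3 passed limma and 0 had an unadjusted p under 0.05. The chlorophyll b reductase gene NOL was at -0.14, AT1G44000 at 0.05 and AT5G38520 at -1.39. Without 22 °C A AT5G38520 was at -3.20, and its signals were 12.3 on 22 °C A and 6.80 and 57.2 in the cold. NOL was nearly level, with 500.7 and 480.2 in the warm and 464.0 and 421.0 in the cold. The carotenoid gene Z-ISO had 0.67 and the phytochrome signalling gene FHL -0.78. Neither they nor LYC and EIN3, the other gene kept in each of these 2 lists, passed limma, and 0 had an unadjusted p under 0.05. The bZIP gene HYH was left out by the filter on low signal, and the import and antenna insertion list had no single-gene probe set.

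The genes with the profile most like that of each member were found by the Euclidean distance of log2(signal + 32), centred on each gene's own mean, over the 4 arrays and 8624 other genes. Nearest to PORB was AT4G23670 (distance 0.80), with 1713 and 6734 in the warm and 19.1 and 1.402 in the cold. It was followed by the methionine sulfoxide reductase gene MSRB9 (0.91), AT5G44020 (0.98) and, further off, AT3G16370 and AT1G04040. All 5 had higher signals on warm B, by 1.96 to 3.16 on the log2 scale. A likeness on these arrays is what the distance selects, for both members, so it is no separate result. None of the 5 is on the pathway lists, on which only 37 genes were kept. Nearest to LHCB4.1 was AT3G26510 (0.48), with 5719.6 and 5849 in the warm and 423.2 and 503.8 in the cold. EXLA1, an expansin-like gene, followed (0.51), then AT5G44380 (0.54), AT3G15450 (0.61) and AT2G46600 (0.66), with B minus A of 0.03 to 0.84 over the 5. The members lay at a distance of 3.07 from each other, further than the nearest 5 of each, which were picked for closeness. Of 8624 genes, LHCB4.1 was number 64 in order from PORB, and PORB was number 2013 in order from LHCB4.1. Both were chosen for lower signals in the cold, so these places are a description only.

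**Figure D4:**
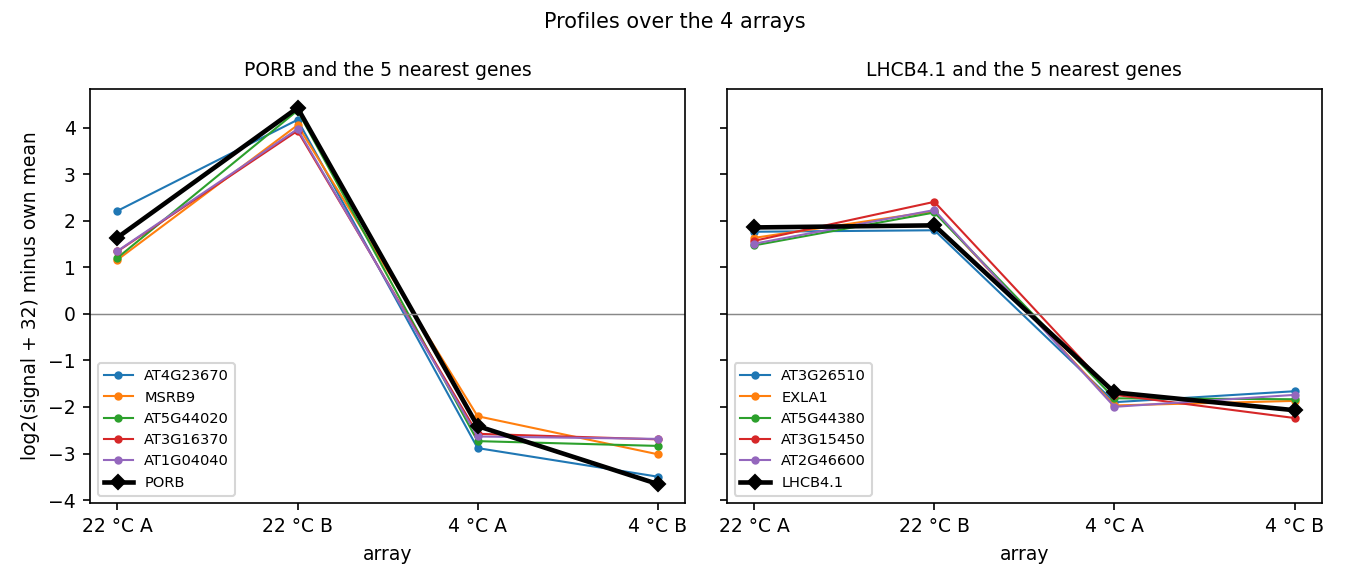
Log2(signal + 32) minus each gene's own mean on the 4 arrays for PORB, LHCB4.1 (black) and the 5 genes nearest to each. The PORB set climbs by 1.96 to 3.16 from 22 °C A to 22 °C B before dropping at 4 °C, while in the LHCB4.1 set that step is 0.03 to 0.84. Both sets were chosen for their profiles on these same arrays.

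The chromosomal neighbours of the members had smaller temperature differences where they were measured. The members were chosen for a large difference, so a smaller one at most other genes follows from that choice. Of the 10 protein-coding genes nearest to PORB on chromosome 4, 5 on each side in the RefSeq table, 4 were measured. Their log2 differences ran from -1.59 to 1.87. Of these 4, 0 passed limma, too few genes to set against the 5.05% of all probe sets called. AT4G27450, next to PORB, had 15236 and 11405 in the warm and 6042 and 3124 in the cold (adjusted p = 0.0913). RRP41L, the fifth gene on that side, was higher in the cold, with 294.9 and 196.3 at 22 °C and 984.3 and 943.2 at 4 °C (adjusted p = 0.0574). Of the 10 genes nearest to LHCB4.1 on chromosome 5, 2 had a single-gene probe set and 1 was kept. This was TAAC, which encodes a thylakoid carrier of ATP and ADP, with 1887 and 700.1 at 22 °C and 875.2 and 1179.8 at 4 °C on A and B. Its log2 difference was -0.18 (limma adjusted p = 0.883), and its warm replicates differed in the direction opposite to those of PORB.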

How the data were processed

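Probe set signals of 4 arrays were used. The authors deposited them as linear intensities. Per the submitters' processing notes, MAS5 was the software, with no version; other steps are not given here. On every array the deposited intensity had a trimmed mean of 100 (2% left out at each end), as found from the values. Each array was multiplied by about 5, to a trimmed mean of 500. The 64 controls were left out and 15847 of 22746 probe sets had a mean scaled signal of at least 64 and were kept. The test used log2(signal + 32), which understates differences of low signals, with limma 3.58.1 in R 4.3.3 (lmFit, eBayes with trend, no covariate, two-sided, Benjamini-Hochberg over all kept probe sets, threshold 0.05). The limma code was tested on simulated data.

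In the platform annotation 13513 probe sets have 1 gene, 503 have several and 8730 are unlisted; 13436 matched the RefSeq table of assembly TAIR10.1, which gave symbols. A gene with several single-gene probe sets was represented by that with the highest mean. PORB, LHCB4.1 and the gene lists were chosen with earlier results of these data known. Named genes are the measured genes of chlorophyll synthesis, chlorophyll breakdown, light harvesting and photosystem subunits, the calls of each other list or else its largest absolute difference, the 5 genes nearest to each member in profile, and their chromosomal neighbours. Alternatives were another pseudocount, filter, normalization or variance model, the replicate letter as a block, and each array left out. Replicate letters are not said to pair arrays, and with 1 pair at each letter this cannot be decided from the values.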

Additional observations from a re-analysis of the deposited data

How the results depend on the processing

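Both members were chosen for much lower cold signals, so their temperature differences kept their sign under every alternative run by that choice. With an array left out, that of PORB ranged from -7.46 to -4.67 and that of LHCB4.1 from -3.95 to -3.56. With a pseudocount of 100 the difference was -5.11 for PORB and -3.47 for LHCB4.1, and on the deposited scale it was -4.63 and -3.26. Both settings weigh low signals less. The warm replicate difference of PORB stayed between 2.63 and 2.99, and that of LHCB4.1 between -0.11 and 0.26. Limma called 801 probe sets, but 226 with a pseudocount of 100, 2 with no filter, 1266 with a filter at 200, 2879 with the replicate block, and from 1 to 4277 with an array left out, when the lone array is assumed to vary like the other pair. Against 3 listed genes called, it was 0 with a pseudocount of 100 (9 at an unadjusted p under 0.05), 0 with no filter (10), 1 on the deposited scale, 10 with the replicate block, 9 of them lower (PRK, hemf2, SBPASE, RCA, ATPC1, LHCB4.2, PSBY, PSAN and AT1G74470), and from 0 to 18 with an array left out. Over all probe sets tested, the share called was 5.05% in the main limma test and 18.2% with the replicate block. For the listed genes it was 8.11% and 27.0%, so calls rose over the whole array and not in these lists alone. On the deposited scale 11.1% of all probe sets were called, against 1 of 25 listed genes. With a pseudocount of 100 it was 1.43% of all probe sets, and with no filter 0.00879%. The labels do not say that a letter marks a pair, and B minus A in the warm and in the cold correlated over probe sets with r = 0.209. The cause of these shifts was not tested. With 2 arrays a group no array was tested for standing apart, and the number of arrays limits the precision.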
